A study of Mus musculus with 6 samples.

Results

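The insulin-like growth factor binding proteins IGFBP1 to IGFBP7 are a family of 7 secreted proteins, and their 7 genes were followed here in LAPC-4 xenograft tumors from mice on 2 diets. The genes were taken by human Ensembl identifier from a count table of 60649 genes, and 6 of the 7 had the 10 reads over all tumors needed to enter the comparison between diets, as did 24545 genes in all. The family was picked with the result for IGFBP4 already known, since this gene had the smallest p of all tested genes in the comparison of the diets. The differences between diets in the 7 genes are therefore given as a description, with no test of their own. The other 6 genes belong to the family by name and were not picked one by one for their values.

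LAPC-4 is a human hormone-sensitive prostate cancer line with a wild-type androgen receptor, and 1 line was used throughout. The cells were injected with Matrigel into the flank of male severe combined immunodeficient mice (CB.17 scid/scid), which lack functional B and T cells but keep other host cells. All mice ate the HiGI diet until their tumors averaged 200 mm3, when they were housed singly and randomized. The HiGI group stayed on a Western diet of high glycemic index with sucrose as its main carbohydrate. The LoGI group went to a Western diet of nearly the same composition with Hylon-VII, a starch rich in amylose, as its main carbohydrate. RNA-sequencing covered 3 HiGI tumors (16, 20 and 26) and 3 LoGI tumors (19, 27 and 28), with 18749813 to 21550812 counted reads each. Each tumor came from another mouse. The records name mouse as the organism, while all 60649 rows of the table carry human gene identifiers, so the values are those of reads assigned to human genes. Identifiers other than those of the family were not paired with symbols here, so the markers that would check the tumors as prostate epithelium, and those of stroma, vessels or leukocytes, were not looked up.

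IGF binding proteins hold IGF-1 and IGF-2 outside the cell, prolong their life in blood and tissue, and control how much ligand reaches the IGF-1 receptor. Proteases such as pregnancy-associated plasma protein A cut some of them and set the ligand free. Several also act on cells apart from their ligands, through matrix, integrins or other surface partners. In the prostate, where IGF signaling feeds growth and survival, IGFBP3 in particular is studied for restraint of tumor cells.

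Levels are given in CPM, the reads of a gene scaled to the library size of its tumor after TMM normalization, which corrects for differences in library composition. Within the family, IGFBP4 and IGFBP7 were nearly absent from the LoGI tumors while IGFBP2, IGFBP3, IGFBP5 and IGFBP6 were read in all 6 tumors at overlapping levels. IGFBP4 went from 137 ± 32.4 CPM in HiGI tumors to 0.237 ± 0.0434 CPM in LoGI tumors (SD, n = 3 each). IGFBP7 went from 21.1 ± 11.6 to 0.238 ± 0.321 CPM (SD, n = 3 each). IGFBP1 was at the limit of detection on both diets.

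Past the rule used for all genes (edgeR quasi-likelihood, a Benjamini-Hochberg false discovery rate under 0.05, and a log2 fold change (FC) that reaches 1 in either direction), 2 of the 6 tested family members were lower in LoGI tumors and 0 were higher. Of all tested genes, 3.38% were lower and 0.0733% higher by that rule. The same 2 members were those whose CPM did not overlap between diets, against 10.9% of all tested genes that lay lower in every LoGI tumor and 7.59% that lay higher. Nothing is read from these counts, because the choice of the family used this comparison. The median log2 FC of the 6 members was -0.15, and that of all tested genes was 0.0034.

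**Figure D1:**
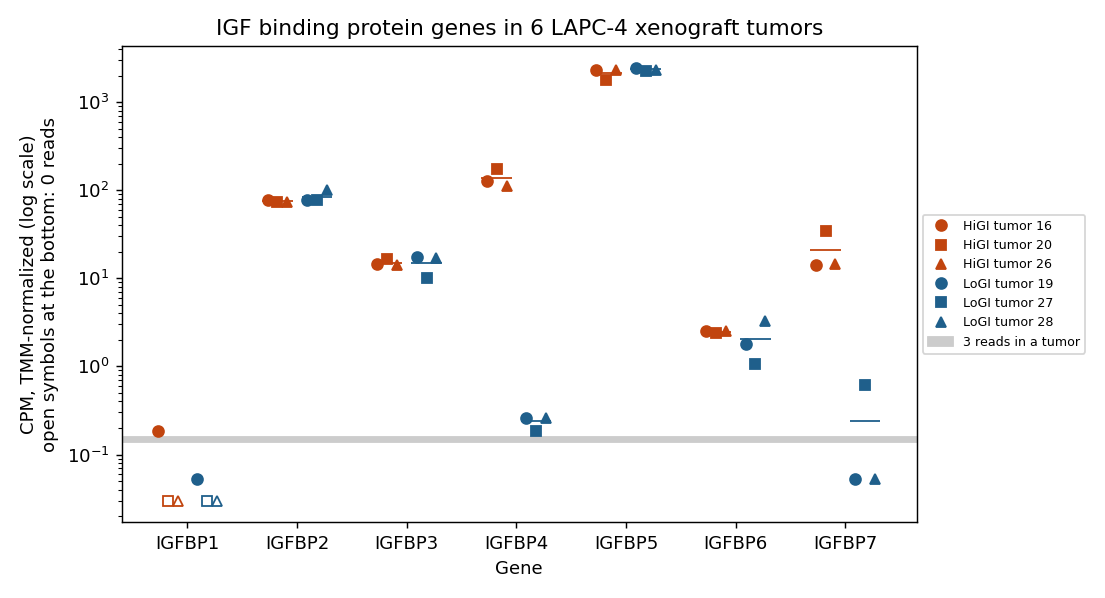
CPM (TMM-normalized, log scale) of each IGF binding protein gene in each tumor, with HiGI tumors in red, LoGI tumors in blue, short lines for the mean of 3 tumors (not drawn for IGFBP1), open symbols for 0 reads, and a grey band for the level that 3 reads give. For IGFBP4 and IGFBP7 the red and blue points lie apart, with LoGI tumors at 0.608 CPM or less, and for IGFBP2, IGFBP3, IGFBP5 and IGFBP6 they overlap.

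IGFBP4 (ENSG00000141753.7) encodes a binding protein known mainly as an inhibitor of IGF action, which pregnancy-associated plasma protein A cleaves once a ligand is bound. HiGI tumors 16, 20 and 26 held 2765, 3477 and 2080 of its reads, while LoGI tumors 19, 27 and 28 held 5, 4 and 5. In CPM these were 127, 173 and 111 against 0.262, 0.187 and 0.263. All 3 HiGI tumors were high, all 3 LoGI tumors were just above the 3 reads taken as the smallest level this depth can show, and the lowest HiGI tumor was 421-fold above the highest LoGI tumor. The mean was 577-fold higher in HiGI tumors, with a 95% interval for counting error alone of 347 to 1067 from the 8322 HiGI and 14 LoGI reads. The log2 FC for LoGI over HiGI was -9.15 (standard error 0.41), with a 95% interval from -9.96 to -8.34. Because only 14 reads set the LoGI side, a larger prior count, the small number of reads that edgeR adds before it takes logs, moved it to -8.67. In bulk tumors, fewer cells that express the gene and less of its RNA in each cell cannot be told apart.

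The value was also set beside genes of like read number. In every HiGI tumor, 1884 genes had at least the 2080 reads of the lowest IGFBP4 value, and 1 of them, IGFBP4 itself, had at most 5 reads in every LoGI tumor. Both limits are the gene's own lowest HiGI and highest LoGI counts, so this number is nearly fixed by how they were set, and ENSG00000198959.12, whose lowest HiGI count was 2689 and highest LoGI count 8, had much the same pattern. Of the tested genes, 0.0448% had a lower log2 FC than IGFBP4. These figures describe the value that chose the gene and support nothing beyond it.

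The spread of IGFBP4 among tumors of 1 diet was small beside the difference between diets. Its coefficient of variation was 23.6% in HiGI and 18.3% in LoGI tumors, and the highest tumor was 1.56-fold above the lowest in the HiGI group. The LoGI value comes from 5, 4 and 5 reads, too few to measure the spread among those tumors. With each tumor left out in turn, the log2 FC ran from -9.28 to -8.94, and the gene stayed past the rule in all 6 fits. These fits reuse the tumors that chose the gene, so its passing the rule was nearly fixed in advance and adds no support.

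IGFBP7 (ENSG00000163453.11) encodes a relative of the other members that binds IGFs weakly, binds insulin as well, and is known from the walls of blood vessels. Its reads numbered 306, 692 and 277 in HiGI tumors 16, 20 and 26, against 1, 13 and 1 in LoGI tumors 19, 27 and 28. In CPM these were 14.1, 34.4 and 14.7 against 0.0525, 0.608 and 0.0525. HiGI tumor 20 stood above the other HiGI tumors and LoGI tumor 27 above the other LoGI tumors, yet the lowest HiGI tumor was 23.1-fold above the highest LoGI tumor. The mean was 88.6-fold higher in HiGI tumors, with a 95% interval for counting error alone of 50.3 to 149 from 1275 and 15 reads. The log2 FC was -6.36 (standard error 1.08), with a 95% interval from -8.48 to -4.23. That interval also takes in the spread between tumors, which the counting interval leaves out.

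The size of the IGFBP7 difference rested on LoGI tumor 27, which held 13 of the 15 LoGI reads. Without that tumor the log2 FC was -8.48, and the remaining LoGI tumors had 1 read each, which gives a ratio of HiGI to LoGI of 402 with a 95% interval for counting error alone of 111 to 3311. With any other tumor left out it ran from -6.58 to -5.81. IGFBP7 stayed past the rule in all 6 of these fits. They reuse the tumors of the full comparison, where the lowest HiGI tumor was 23.1-fold above the highest LoGI tumor. That IGFBP7 passed was therefore nearly fixed in advance and adds no support. Among the 727 genes lower in LoGI tumors by the rule that had a single highest LoGI tumor, tumor 27 was the highest for 31.2%, against 28.1% for tumor 19 and 40.7% for tumor 28.

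Among the HiGI tumors, IGFBP4 and IGFBP7 were both highest in tumor 20. Tumor 20 was the highest HiGI tumor for 32.7% of the 829 genes that were lower in LoGI tumors by the rule, and tumor 16 for 46.8%. HiGI tumors 16, 20 and 26 held 9.04, 5.02 and 7.51 IGFBP4 reads for each IGFBP7 read. LoGI tumors 19, 27 and 28 held 5, 0.308 and 5, where tumors 19 and 28 each rest on 1 IGFBP7 read. The sum of CPM over those 829 genes was 9795, 9243 and 7414 in HiGI tumors 16, 20 and 26, so that tumor 20, highest for both binding proteins, was not the highest for the 829 genes together. IGFBP4 and IGFBP7 supplied 1.44%, 2.24% and 1.69% of the reads on these genes.

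IGFBP5 (ENSG00000115461.5), which binds to extracellular matrix as well as to IGFs, took most of the family's reads in every tumor. There were 49844, 36134 and 43962 reads for HiGI tumors 16, 20 and 26, against 47026, 48649 and 43947 in LoGI tumors 19, 27 and 28. Only 24 tested genes had more reads over the 6 tumors. Its level was 2142 ± 299 CPM in HiGI and 2351 ± 102 CPM in LoGI tumors (SD, n = 3 each). HiGI tumor 20 was the lowest of all 6 and the groups overlapped. The log2 FC was 0.13 (standard error 0.11), with a 95% interval from -0.08 to 0.34, which is 0.948 to 1.27 on the scale of the ratio of LoGI to HiGI.

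IGFBP2 (ENSG00000115457.10), a binding protein of serum and of many epithelia that carries an integrin-binding motif, gave 1692, 1461 and 1393 reads for HiGI tumors 16, 20 and 26, against 1465, 1655 and 1908 in LoGI tumors 19, 27 and 28. It stood at 74.9 ± 2.63 CPM in HiGI and 84.8 ± 13.3 CPM in LoGI tumors (SD, n = 3 each). LoGI tumor 28 was the highest at 100.2 CPM, and the other LoGI tumors lay within the range of the HiGI tumors. The log2 FC was 0.18 (standard error 0.12), with a 95% interval from -0.05 to 0.41, or a ratio of 0.963 to 1.33. It fell to 0.04 when LoGI tumor 28 was left out.

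IGFBP3 (ENSG00000146674.16) encodes the main carrier of IGFs in serum, where it forms a larger complex with the acid-labile subunit. The study also measured this protein in mouse serum, whereas the reads here are of the human gene in tumors. Tumor reads came to 314, 332 and 263 for HiGI tumors 16, 20 and 26, against 329, 214 and 326 in LoGI tumors 19, 27 and 28. Its level was 15.0 ± 1.35 CPM in HiGI and 14.8 ± 4.14 CPM in LoGI tumors (SD, n = 3 each), and LoGI tumors held both the highest and the lowest value. The log2 FC was -0.02 (standard error 0.19), with a 95% interval from -0.39 to 0.35. The interval corresponds to a ratio of 0.762 to 1.27. The sign turned when HiGI tumor 20 (0.06) or LoGI tumor 27 (0.21) was left out.

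IGFBP6 (ENSG00000167779.9), which prefers IGF-2 over IGF-1, was read at a low level. HiGI tumors 16, 20 and 26 had 55, 48 and 48 reads, against 34, 23 and 63 in LoGI tumors 19, 27 and 28. In CPM it was 2.49 ± 0.0883 in HiGI and 2.06 ± 1.14 in LoGI tumors (SD, n = 3 each). The HiGI tumors lay close together while the LoGI tumors spread 3.07-fold from tumor 27 to tumor 28, on both sides of the HiGI values. The log2 FC was -0.29 (standard error 0.37), with a 95% interval of 0.499 to 1.35 for the ratio of LoGI to HiGI, the widest among the 4 members that did not pass the rule. It was -0.81 without LoGI tumor 28 and 0.04 without LoGI tumor 27.

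IGFBP1 (ENSG00000146678.10), a liver product that insulin represses, had 4 reads in HiGI tumor 16, 1 read in LoGI tumor 19 and 0 reads in the other 4 tumors. A count of 0 allows up to 3 reads, which is 0.138 to 0.160 CPM at these depths. Both groups were at or near this limit, so no fold is given and a difference between diets was not detectable at this depth.

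**Figure D2:**
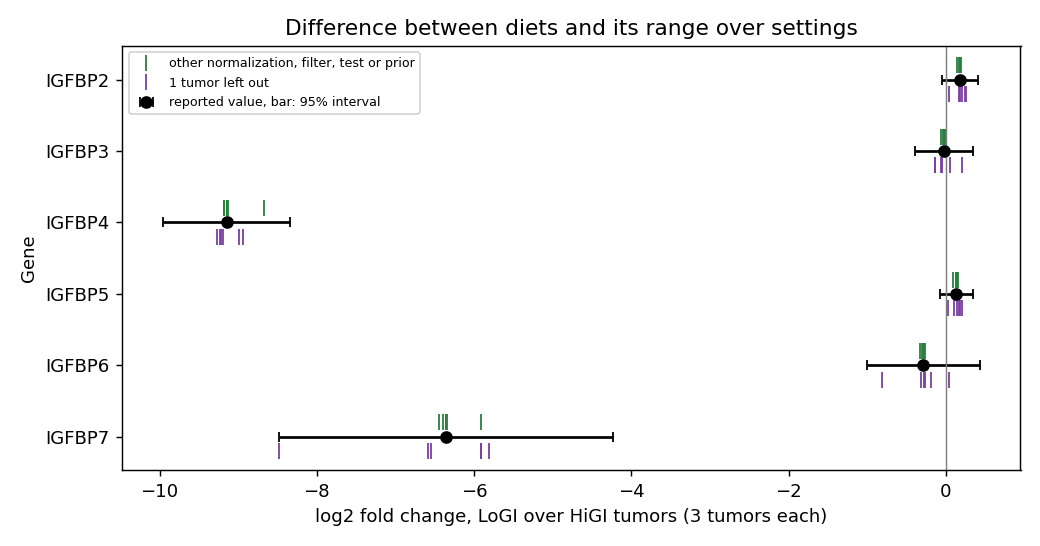
Log2 FC of LoGI over HiGI tumors for the 6 tested members, with the 95% interval (from the DESeq2 standard error) as a bar, other settings in green and fits without 1 tumor in purple. IGFBP4 and IGFBP7 lie far below 0 in every fit that tested them, the single distant purple mark for IGFBP7 (-8.48) is the fit without LoGI tumor 27, and the intervals of the other 4 members include 0.

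Set among all tested genes, the 4 members with overlapping groups lay inside the body of the distribution, whose 5th and 95th percentiles were at log2 FC of -1.44 and 0.75. IGFBP7 lay in its lower tail, with 0.485% of tested genes at a lower log2 FC. IGFBP4 lay lower still.

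**Figure D3:**
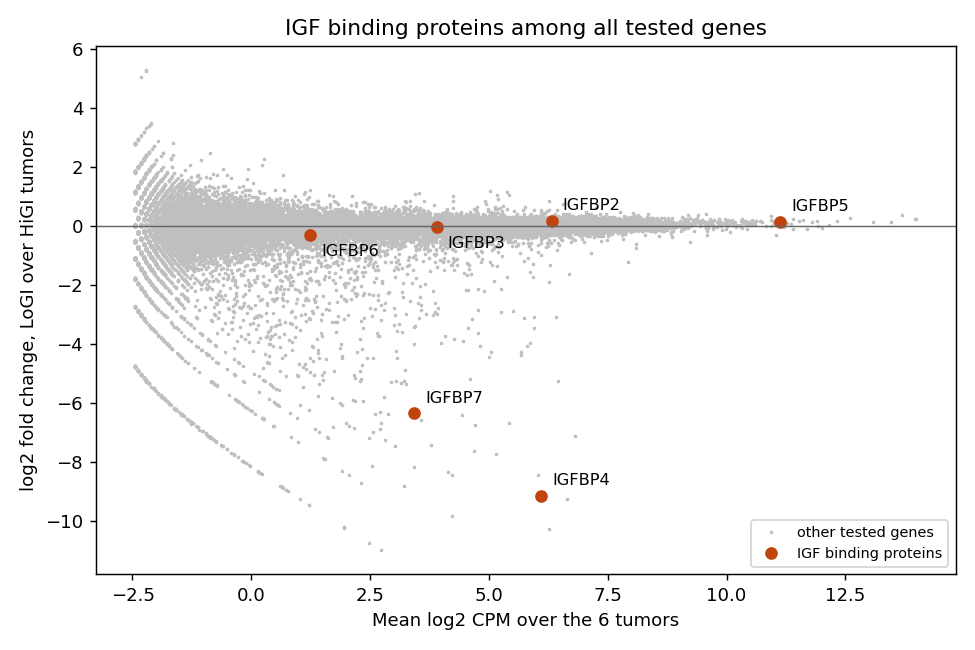
Log2 FC of LoGI over HiGI tumors against the mean log2 CPM over the 6 tumors for all 24545 tested genes in grey, with the 6 tested members in red. IGFBP2, IGFBP3, IGFBP5 and IGFBP6 sit in the band around 0, IGFBP7 at -6.36 and IGFBP4 at -9.15.

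The family as a whole took nearly the same share of the library on both diets. All 7 genes together gave 2393 ± 256 CPM in HiGI and 2453 ± 100.3 CPM in LoGI tumors (SD, n = 3 each), and the groups overlapped. This sum follows IGFBP5, which held 85.7% to 91.5% of the family's reads in HiGI and 95.02% to 96.2% in LoGI tumors. These shares are of reads, not corrected for transcript length, so they do not rank the members by RNA molecules.

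Apart from IGFBP5, the sum of the family was 236, 299 and 216 CPM in HiGI tumors 16, 20 and 26 and 96.2, 89.3 and 121 CPM in LoGI tumors 19, 27 and 28, without overlap. The sum includes IGFBP4, whose value chose the family, so this separation was nearly fixed in advance and adds no support. IGFBP4 supplied 51.2% to 57.9% of the reads in the sum in HiGI tumors and 0.210% to 0.272% in LoGI tumors. The remainder was IGFBP2 for the most part, at 24.3% to 34.3% in HiGI and 79.8% to 86.7% in LoGI tumors. IGFBP2, IGFBP3 and IGFBP6 together came to 92.3 ± 2.16 CPM in HiGI and 102 ± 16.8 CPM in LoGI tumors (SD, n = 3 each), and the groups overlapped. The larger share of IGFBP2 in LoGI tumors was thus a share of a smaller sum, beside overlapping levels of the gene itself.

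**Figure D4:**
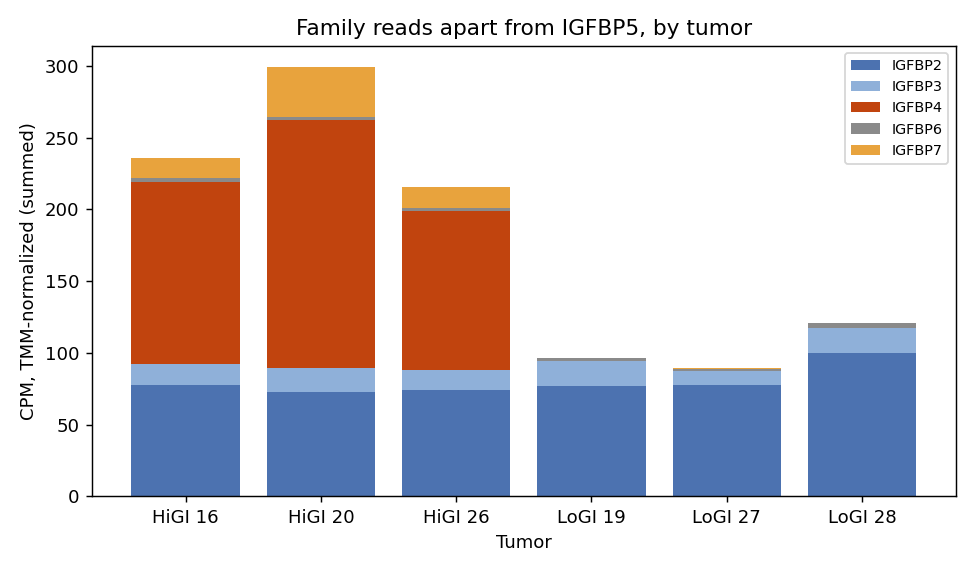
Summed CPM (TMM-normalized) of IGFBP2, IGFBP3, IGFBP4, IGFBP6 and IGFBP7 in each tumor, stacked by gene and without IGFBP5. The HiGI bars reach 216 to 299 CPM and the LoGI bars 89.3 to 121 CPM, and the extra height of the HiGI bars is IGFBP4 and IGFBP7.

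A ratio to IGFBP5 within each tumor needs no normalization between libraries. For each 1000 IGFBP5 reads there were 55.5, 96.2 and 47.3 IGFBP4 reads in HiGI tumors 16, 20 and 26, and 0.106, 0.0822 and 0.114 in LoGI tumors 19, 27 and 28. The same ratio for IGFBP7 was 6.14, 19.2 and 6.30 against 0.0213, 0.267 and 0.0228. For IGFBP2 it overlapped, with 31.7 to 40.4 reads in HiGI and 31.2 to 43.4 in LoGI tumors. On this scale IGFBP4 and IGFBP7 were separated by diet and IGFBP2 was not. For IGFBP4 and IGFBP7 this was fixed in advance, since IGFBP5 ranged only from 1798 CPM (HiGI tumor 20) to 2467 CPM (LoGI tumor 19). In CPM, the lowest HiGI tumor was 421-fold above the highest LoGI tumor for IGFBP4 and 23.1-fold for IGFBP7. The ratio therefore adds no separate support.

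The genes whose profile over the 6 tumors was most like that of IGFBP4 were found by the Euclidean distance between log2 CPM values centred on each gene's mean. All 5 of the nearest genes were also high in HiGI and nearly absent in LoGI tumors. The nearest, ENSG00000198959.12, at a distance of 0.864, was read 5141, 4387 and 2689 times for HiGI tumors 16, 20 and 26, against 4, 8 and 7 times for LoGI tumors 19, 27 and 28. The next, ENSG00000163739.5, at a distance of 1.28, had 1147, 688 and 436 reads against 0, 1 and 1. The nearest family member was IGFBP7, in 30th place at a distance of 3.65, whereas IGFBP6, IGFBP3, IGFBP5 and IGFBP2 were at distances between 10.2 and 10.8. With 6 tumors in 2 groups the distance mostly reflects the difference between diets, so that the order describes its size. Shared control of these genes was not tested.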

How the data were processed

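Total RNA from 6 tumors was made into stranded mRNA libraries and sequenced as 75 bp single-end reads. The authors mapped reads to the human (GRCh38.p13) and mouse (GRCm38.p6) genomes with BBMap, discarded those found in mouse alone, and ran STAR alignment and RSEM quantification of the remainder on the human genome. The authors deposited whole-number counts per gene, not normalized. Versions, and how RSEM estimates became whole, are not given in the sources used here. Reads that match both genomes stayed in the counts, so a host share of a member's reads cannot be told apart.

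Columns were matched to tumors by name, with 0 left over, and diets were taken from the treatment labels. Genes with at least 10 reads over the tumors were normalized by TMM and compared with edgeR 4.0.16 (quasi-likelihood test, prior count 0.125, Benjamini-Hochberg over all tested genes) in R 4.3.3. Standard errors of log2 FC came from DESeq2 1.42.0. Each 95% interval of log2 FC sets this standard error, with a normal quantile, around the edgeR value. Its middle and its width thus come from different fits. The log2 FC of DESeq2 itself was -9.18 for IGFBP4 and -6.45 for IGFBP7. Intervals of folds are exact binomial. These and the limit of 3 reads cover counting error only. The code was tested on simulated counts. Alternatives were other normalizations, filters, the DESeq2 Wald test, a prior count of 2, no minimum FC, and each tumor left out. The members, lists and tests were chosen with earlier results of these data known.

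All 7 members were named, with the 5 genes nearest to IGFBP4 in profile, of which 2 are given by identifier. The human identifiers of the table were not paired with symbols here beyond the 7 members. The planned lists of IGF ligands and receptors, binding protein proteases, related proteins, surface partners, regulators and cell type markers, and the genomic neighbours of the members, were therefore not analysed here. Human coordinates, transcript lengths and sequences were not used here. No library was a repeated count of another. Chi-square per degree of freedom between tumors of 1 diet was 4.91 or more, where repeated counts of 1 library give a value near 1. The lowest value was that of LoGI tumors 19 and 27, and the other pairs within a diet ran from 9.20 to 12.5. Such a value cannot tell a second library of 1 tumor from a library of another tumor.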

Additional observations from a re-analysis of the deposited data

How the results depend on the processing

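IGFBP4 and IGFBP7 kept their direction and stayed past the rule in each of the 13 alternative fits that tested them. With no minimum FC, which is the main fit under a looser rule, they passed by construction. All of these fits used the same tumors. For IGFBP4, whose result chose the family, and for IGFBP7, whose groups lay far apart, the outcome was nearly fixed in advance and adds no support. Both genes had fewer than 10 reads in at least 1 LoGI tumor. A filter of at least 10 reads in every tumor therefore removed both by its construction. It left 0 members lower in LoGI tumors. With a prior count of 2 the log2 FC of IGFBP4 was -8.67. Over the fits without 1 tumor, IGFBP4 ran from -9.28 to -8.94 and IGFBP7 from -8.48 to -5.81. No setting brought IGFBP2, IGFBP3, IGFBP5 or IGFBP6 past the rule, and the sign of IGFBP3 turned in 2 and that of IGFBP6 in 1 of the 6 fits without 1 tumor. The number of all genes higher in LoGI tumors (18) was 39 with genes of at least 1 read, 10 with the filter on every tumor and 90 with no minimum FC, and ran from 4 to 26 without 1 tumor. The number lower (829) was 300 with the filter on every tumor, and ran from 685 to 846 without 1 tumor. No paired analysis was run, because each tumor came from another mouse and the design pairs no tumors between diets. The alternatives for the pathway lists and the neighbours were not run, since those genes were not looked up. Depth limits IGFBP1, and the LoGI side of IGFBP4 and IGFBP7, where 14 and 15 reads in all set the fold.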
